A study of Homo sapiens with 6 samples.

Results

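Integrins and laminins were chosen by gene symbol, as the names of integrin α and β subunits and of laminin chains, among the 62700 gene IDs of the count table. The 37 genes described comprised 18 α subunits, 8 β subunits and 11 laminin chains, and the rule reads symbols, not measured values. Their mRNA was counted in KYSE510, an established cell line from a squamous carcinoma of the oesophagus that was kept in 10% serum, with no animal, donor tissue or second cell type in the study. In the 3 shRNH1 libraries the cells carried a short hairpin RNA (shRNA) that the labels aim at RNH1, and their genotype is given as a knockdown. In the 3 shControl libraries they carried a control shRNA, and their genotype is given as WT. The labels do not give the hairpin sequences, the number of hairpins or whether either line was a clone.

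Library totals were 31394687 to 33421217 counts in shRNH1 cells and 40225486 to 41103220 counts in shControl cells. The name RNH1 officially belongs to the ribonuclease inhibitor gene, so both possible targets were read. RNASEH1, which encodes the nuclease that cuts RNA paired with DNA, had 251, 247 and 232 counts in shRNH1 cells, against 1357, 1344 and 1015 in shControl cells (log2 fold change −2.14, SE 0.116, adjusted p = 1.61e-13). The ribonuclease inhibitor gene itself did not pass, at a log2 fold change of −0.19 (RNH1, SE 0.112, adjusted p = 0.221). The 8 squamous epithelial markers had summed levels of 1035 to 1079 CPM (counts scaled to a common library total) in shRNH1 cells and 1136 to 1442 CPM in shControl cells. Of those markers 4 were lower and 1 was higher in shRNH1 cells at the threshold used below (62.5%, against 27.6% of all genes tested). The lower ones were KRT6A (log2 fold change −2.13), KRT14 (−1.4), KRT5 (−1.33) and SFN (−0.37). TP63 (−0.02), KRT17 (0.02) and DSG3 (−0.08) did not pass. KRT17 and SFN had the highest means, at 478 and 497 CPM in shRNH1 cells and 471 and 643 CPM in shControl cells. The higher one, PKP1, named after its values were seen, had 0 to 21 counts per library and was tested through its shRNH1 libraries alone. Of 10 fibroblast markers, 5 were tested and 4 passed, 2 being higher and 2 lower, against 27.6% of all genes tested. The fibroblast markers had summed levels of 512 to 572 CPM in shRNH1 cells and 322 to 359.5 CPM in shControl cells. Most of that came from the higher ones, FBLN1 (means 418 and 241 CPM, log2 fold change 0.79) and COL1A1 (123 and 62.5 CPM, 0.98). MFAP5 (−2.04) and PDGFRB (−0.91) were lower, THY1 (0.58) did not pass, and COL1A2 and DCN were listed at 0 throughout. Of 8 endothelial markers, 6 were tested and 3 passed, all higher, against 27.6% of all genes tested. The endothelial markers had summed levels of 313 to 359 CPM in shRNH1 cells and 248 to 296 CPM in shControl cells. Most of that was EGFL7 (means 309.8 and 242 CPM, log2 fold change 0.36), and PECAM1 (0.51) and ESAM (1.26) were also higher. CDH5 (−0.26), VWF (−0.42) and CLDN5 (−0.37) did not pass, and KDR was listed at 0 throughout. The part of these marker shifts in the results below was not tested.

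Integrins are receptors made of 1 α and 1 β subunit that hold cells to their surroundings and pass signals across the membrane in both directions. Laminins are cross-shaped trimers of an α, a β and a γ chain that form the sheet-like base of epithelia. In stratified epithelium such as that of the oesophagus, a laminin with the α3 and β3 chains lies under the basal cells. There it is bound by the α6β4 integrin of hemidesmosomes, the rivets that tie keratin filaments to the basement membrane, and by the α3β1 integrin.

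The question the design poses is which of these genes differ between shRNH1 and shControl cells. In shRNH1 cells the laminin receptor genes ITGB4, ITGA6 and ITGA3 and the laminin β3 chain gene LAMB3 were lower, at 0.676 to 0.815 of their shControl levels. LAMA3 and ITGB1, whose products join the same complexes, did not pass. ITGB8, ITGA2B and ITGAX were higher by 2.43-fold to 3.0-fold, all at lower levels of expression than those 4 genes. ITGAM, a neighbour of ITGAX, was called higher on 4 to 29 counts per library and was tested through its shRNH1 libraries alone. Of the 37 genes, 30 had enough counts for a test, and 15 of these passed an adjusted p of 0.05 in the quasi-likelihood test of edgeR, with p-values adjusted by Benjamini-Hochberg over all 19682 genes tested. Of the 15, 9 were higher and 6 were lower in shRNH1 cells, and the other 15 tested members did not pass. Over all genes tested, 27.6% passed in either direction, 15.3% being higher and 12.3% lower, so calls were common in this comparison. Among the tested members, 15 of 30 were called. Without shRNH1 replicate 1, 5 members were called higher.

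Changes are given by level of expression, since the larger ones lay mostly in genes at low levels. A change of at least 1.5-fold with a call was found for 8 members, 7 higher and 1 lower, against 13.0% of all genes tested. Among all genes with such a change, 1777 were higher and 783 were lower. Of the 17 members with a mean of at least 10 CPM, 8 were called, 3 higher and 5 lower, with a median log2 fold change of −0.08. All genes at that level had 37.4% called, 1464 higher and 1862 lower, and a median of −0.04. Of the 13 tested members below 10 CPM, 7 were called, 6 higher and 1 lower, with a median of 0.7. All genes below 10 CPM had 19.4% called, 1542 higher and 556 lower, and a median of 0.09. Calls at low levels thus lay mostly on the higher side among all genes too. CPM did not overlap between the groups for 16 tested members (53.3%), against 40.0% of all genes tested. These counts describe only the members that had enough reads, and 1 of them, ITGAM, passed the low-count limit of 0.272 CPM through its shRNH1 libraries alone. In a bulk sample, fewer cells of a kind and less RNA per cell cannot be told apart, and the p-values measure the spread between these libraries, since the labels do not say how the cultures were separated.

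**Figure D1:**
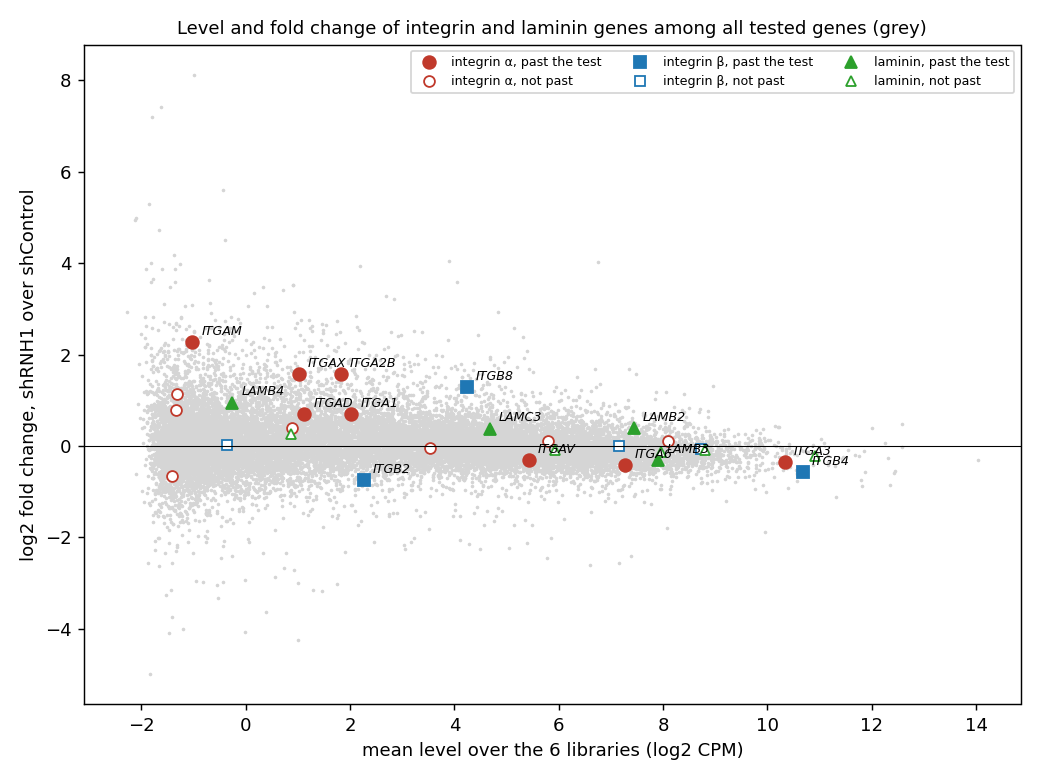
Mean level over the 6 libraries (log2 CPM, x axis) against the log2 fold change of shRNH1 over shControl cells (y axis), with integrin and laminin genes in colour over all 19682 genes tested in grey. The 8 called members with changes of at least 1.5-fold lie mostly below 10 CPM, and members above that level have a median of −0.08.

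The first chain genes belong to the laminin of stratified epithelium, and 1 of them passed. LAMB3 (ENSG00000196878, chr1:209614870-209652466, minus strand), which encodes the β3 chain, had 7828, 7738 and 6274 counts in shRNH1 cells, against 10195, 10007 and 10438 counts in shControl cells. Every shRNH1 library lay below every shControl library. LAMB3 fell to 0.815 of the shControl level (95% interval 0.708 to 0.937; log2 fold change −0.30, SE 0.0981, adjusted p = 0.0248). The LAMB3 call was lost without shControl replicate 1 (−0.30, adjusted p = 0.0782), shControl replicate 3 (−0.24, adjusted p = 0.0615) or shRNH1 replicate 3 (−0.22, adjusted p = 0.2), with library size as the only scaling (−0.18, adjusted p = 0.105), and with an offset for expression level (−0.18, adjusted p = 0.201). LAMA3, which encodes the α3 chain, had 59.0 ± 1.56 CPM in shRNH1 cells and 62.5 ± 2.71 CPM in shControl cells (SD, n = 3 each), and its libraries overlapped (log2 fold change −0.08, SE 0.0898, adjusted p = 0.541).

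Per kilobase of annotated exon, LAMB3 was the more abundant of these chains, at 45.6 CPM per kilobase in shRNH1 cells and 56.0 in shControl cells. LAMA3 stood at 4.02 in shRNH1 cells and 4.26 in shControl cells. These lengths count every annotated exon, 14678 bases for LAMA3. Which LAMA3 transcripts were made was not tested, and a shorter one would give a higher level per kilobase. Ratios within a library, which no scaling factor touches, were compared for 6 pairs of chains, a comparison added after the data were seen. The ratio of LAMA3 to LAMB3 was 0.0798, 0.088 and 0.0985 in shRNH1 cells, against 0.0789, 0.0785 and 0.0715 in shControl cells, a narrow gap between the groups. Exact two-sided permutation tests of 3 libraries against 3 cannot go below p = 0.1, and this ratio had that value (0.15 after adjustment over the 6 ratios). The ratio of LAMB2 to LAMB1, both β chain genes, was 1.02, 1.04 and 0.88 in shRNH1 cells, against 0.623, 0.642 and 0.788 in shControl cells, also without overlap and at the same p.

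Stretches before the starts of the LAMB3 and LAMA3 genes are shown because LAMA3 is a known target of AP-1, the Fos and Jun factor, and because LAMB3 passed the test while LAMA3 did not. The sequences are from RefSeq on GRCh38.p14 and are written 5′ to 3′ on the gene's strand. Distances are counted from the RefSeq start used, which for LAMB3 is the first of 3 listed and lies 41 bases inside the GENCODE gene. The start of LAMA3 is an internal one, 184 kb inside the GENCODE gene, so its stretches lie within the longer gene. The LAMB3 stretch is chr1:209652467-209652596 on the minus strand, 171 to 42 bases before that start, and its capitals mark an SP1 motif. The LAMA3 stretches are chr18:23872885-23872911 and chr18:23872941-23872967 on the plus strand, and their capitals mark AP-1 motifs. LAMA3 also held an SP1 motif, 197 bases before its start and outside the stretches shown.
LAMB3: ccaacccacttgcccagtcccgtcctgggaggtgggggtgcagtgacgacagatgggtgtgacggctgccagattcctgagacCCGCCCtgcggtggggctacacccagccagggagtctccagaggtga
LAMA3, 135 to 109 bases before the start: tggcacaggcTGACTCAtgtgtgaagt
LAMA3, 79 to 53 bases before the start: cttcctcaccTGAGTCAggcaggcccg
The promoter table matched 26 of the 37 members, and the 250 bases before the first start listed for each were searched. The AP-1 motif (TGAGTCA or its reverse complement TGACTCA) lay in 1 of the 26, LAMA3, against 4.16% of 27305 promoters. The SP1 motif (GGGCGG or CCGCCC) lay in 13 of the 26, LAMB3 and LAMA3 among them, against 42.3% of promoters. The TEAD motif (GGAATG or CATTCC) lay in 4 of the 26, which were ITGA10, ITGA5, ITGB1 and LAMA2, against 11.9% of promoters. The interferon response motif ISRE, searched on both strands, lay in 0 of the 26, against 3.07% of promoters. A match describes letters in this window and is not a bound site.

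The other laminin chain genes were read next, the called ones first. LAMB2 (ENSG00000172037, chr3:49121114-49133118, minus strand), the β2 chain gene, had 212, 201 and 175 CPM in shRNH1 cells, against 137, 141 and 171 CPM in shControl cells. The groups did not overlap, though shRNH1 replicate 3 and shControl replicate 3 lay close together. LAMB2 rose 1.31-fold (95% interval 1.13 to 1.52; log2 fold change 0.39, SE 0.102, adjusted p = 0.0048), and the call was lost without shControl replicate 1 (0.33, adjusted p = 0.056) or shRNH1 replicate 1 (0.33, adjusted p = 0.0527). LAMC3 (ENSG00000050555, chr9:131009082-131094473, plus strand), the γ3 chain gene, had 29.2, 32.2 and 25.6 CPM in shRNH1 cells, against 20.6, 20.5 and 25.9 CPM in shControl cells. Here 1 shControl library exceeded the lowest shRNH1 library, so the groups overlapped. LAMC3 rose 1.3-fold (95% interval 1.11 to 1.53; log2 fold change 0.38, SE 0.112, adjusted p = 0.0116). Its call was lost without shControl replicate 1 (0.32, adjusted p = 0.0699), shControl replicate 2 (0.31, adjusted p = 0.08), shRNH1 replicate 1 (0.38, adjusted p = 0.0541) or shRNH1 replicate 2 (0.30, adjusted p = 0.0669).

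LAMB4 (ENSG00000091128, chr7:108023548-108130356, minus strand), a β chain gene about which little is known, had 39, 37 and 31 counts in shRNH1 cells, against 25, 16 and 22 counts in shControl cells. It rose 1.93-fold (95% interval 1.17 to 3.19; log2 fold change 0.95, SE 0.352, adjusted p = 0.0444) with no overlap. Leaving out any 1 of the 6 libraries lost the call, with adjusted p from 0.0543 (without shControl replicate 3) to 0.173 (without shControl replicate 2), and DESeq2 gave 0.101. In all, 4 of 9 tested laminin genes were called (44.4%, against 27.6% of all genes tested), 3 higher and 1 lower. The median log2 fold change of the 9 was −0.08. The count of called laminin genes was 0 to 3 when 1 library was left out. In edgeR it was 0 without shControl replicate 1 (4 at an unadjusted p under 0.05), 1 without shRNH1 replicate 1 and 2 without shControl replicate 2, shControl replicate 3 or shRNH1 replicate 3.

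The most abundant laminin transcript was LAMA5, the α5 chain gene, and it did not pass. It had 1786, 2016 and 1552 CPM in shRNH1 cells, against 1863, 1965 and 2385 CPM in shControl cells, and its libraries overlapped (log2 fold change −0.21, SE 0.115, adjusted p = 0.18). LAMA5 passed in the direction of lower values without shRNH1 replicate 2 (−0.31, adjusted p = 0.0493) and with trends over GC content and length removed (−0.31, adjusted p = 0.042). LAMC1, the γ1 chain gene, had 432 ± 15.1 CPM in shRNH1 cells and 461 ± 31.8 CPM in shControl cells (log2 fold change −0.09, adjusted p = 0.512). LAMB1, the β1 chain gene, had 237 ± 7.89 CPM in shRNH1 cells and 259 ± 1.22 CPM in shControl cells, without overlap but not past the threshold (log2 fold change −0.13, adjusted p = 0.321). LAMA2, the α2 chain gene known from muscle, had 46 to 84 counts per library and a log2 fold change of 0.26 (adjusted p = 0.534). LAMA1 and LAMA4 were not tested, with 0 to 3 and 0 to 5 counts per library.

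**Figure D2:**
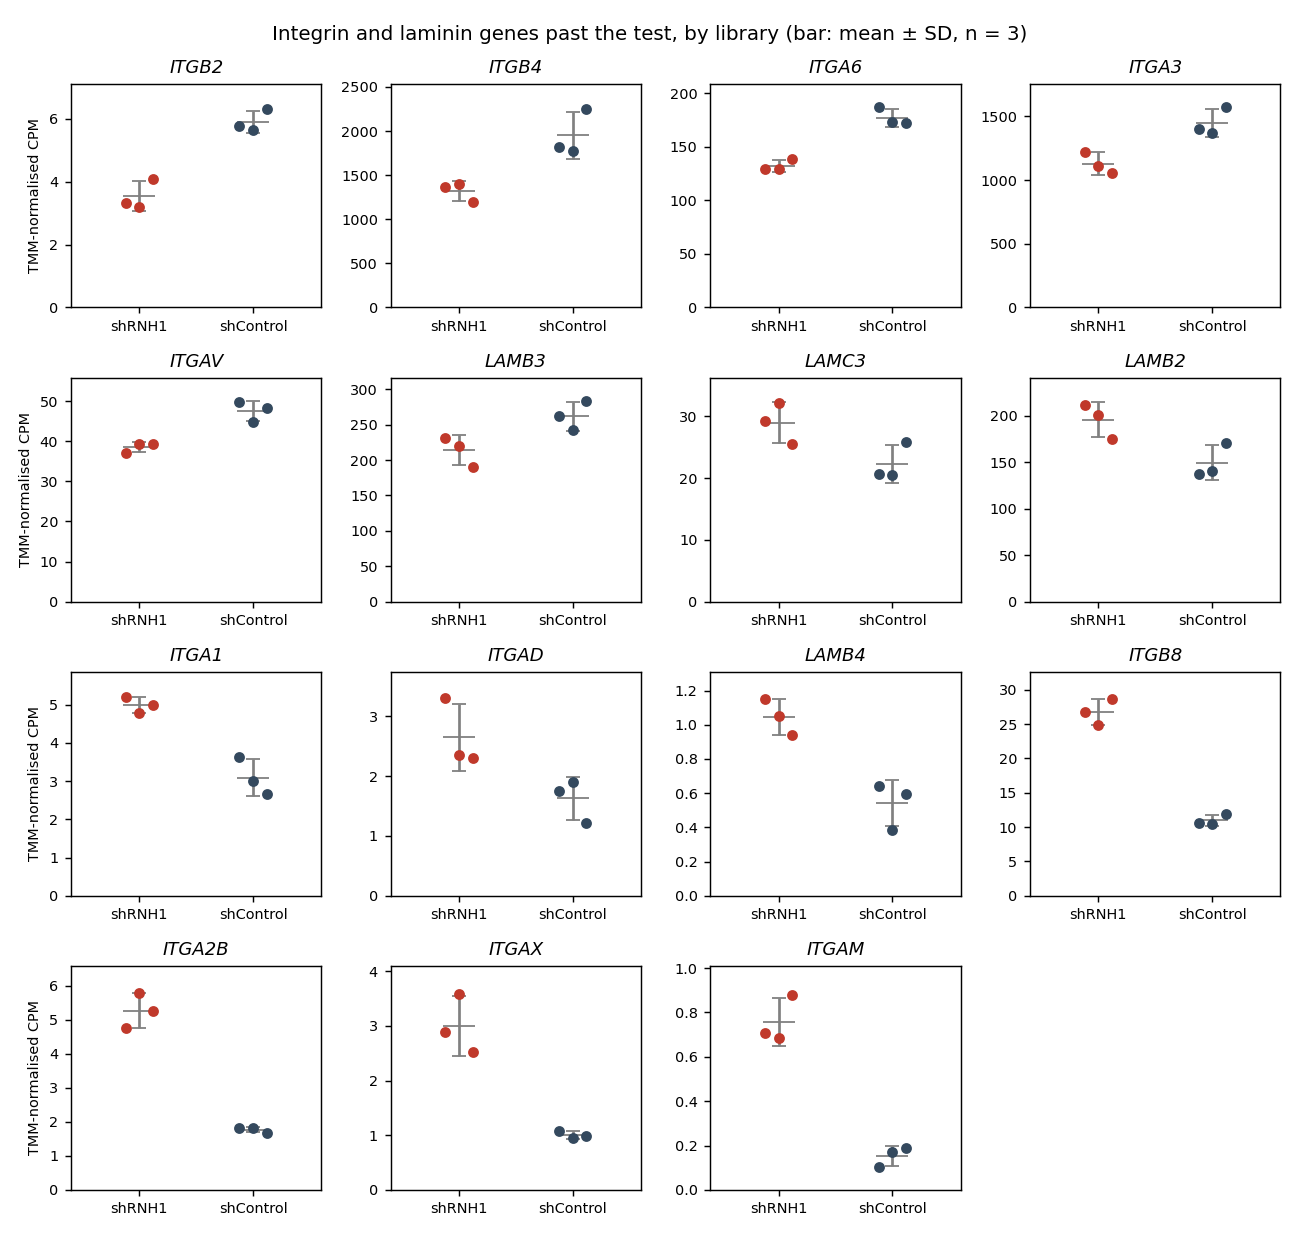
CPM of each of the 15 called integrin and laminin genes, 1 panel per gene with its own axis from 0, shRNH1 left of shControl; points are libraries and bars the mean ± SD (n = 3 each). ITGA2B lies at 5.27 CPM in shRNH1 cells and 1.77 CPM in shControl cells, and LAMC3 is the 1 called gene whose groups overlap.

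The receptors of the epithelial laminin were read next. ITGB4 (ENSG00000132470, chr17:75721328-75757818, plus strand), the β4 subunit gene, whose protein anchors keratin filaments through plectin, had 1365, 1399 and 1192 CPM in shRNH1 cells, against 1825, 1775 and 2254 CPM in shControl cells. It fell to 0.676 of the shControl level (95% interval 0.577 to 0.791; log2 fold change −0.57, SE 0.11, adjusted p = 0.000302), with no overlap. ITGA6 (ENSG00000091409, chr2:172427354-172506282, plus strand), the gene of its only known α partner, had 4358, 4533 and 4577 counts in shRNH1 cells, against 7278, 7134 and 6349 counts in shControl cells. It fell to 0.745 of the shControl level (95% interval 0.655 to 0.847; log2 fold change −0.42, SE 0.0901, adjusted p = 0.000733). Both genes of the α6β4 receptor therefore fell, and both calls stood under every alternative. With an offset for expression level the falls were smaller, in ITGB4 (−0.35, adjusted p = 0.02) and in ITGA6 (−0.33, adjusted p = 0.00741). Their ratio within a library overlapped between groups (log2 difference 0.14, exact permutation p = 0.6).

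ITGA3 (ENSG00000005884, chr17:50055968-50090481, plus strand), whose product pairs with β1 to bind the same laminin, had 1224, 1112 and 1052 CPM in shRNH1 cells, against 1404, 1366 and 1571 CPM in shControl cells. It fell to 0.781 of the shControl level (95% interval 0.675 to 0.903; log2 fold change −0.36, SE 0.102, adjusted p = 0.00951), with no overlap. The ITGA3 call was lost without shRNH1 replicate 3 (−0.31, adjusted p = 0.0892) and with an offset for expression level (−0.15, adjusted p = 0.305). Its partner ITGB1, the β1 gene shared by most α subunits, had 141 ± 11.6 CPM in shRNH1 cells and 142 ± 7.31 CPM in shControl cells (log2 fold change −0.01, SE 0.0928, adjusted p = 0.933). The ratio of ITGA3 to ITGB1 per kilobase was 5.42, 5.22 and 4.2 in shRNH1 cells, against 5.72, 5.98 and 7.06 in shControl cells, without overlap (exact permutation p = 0.1, adjusted 0.15). ITGA7, the third laminin-binding α subunit and best known from muscle, had 5 to 27 counts per library and did not pass (log2 fold change 1.13, adjusted p = 0.123).

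**Figure D3:**
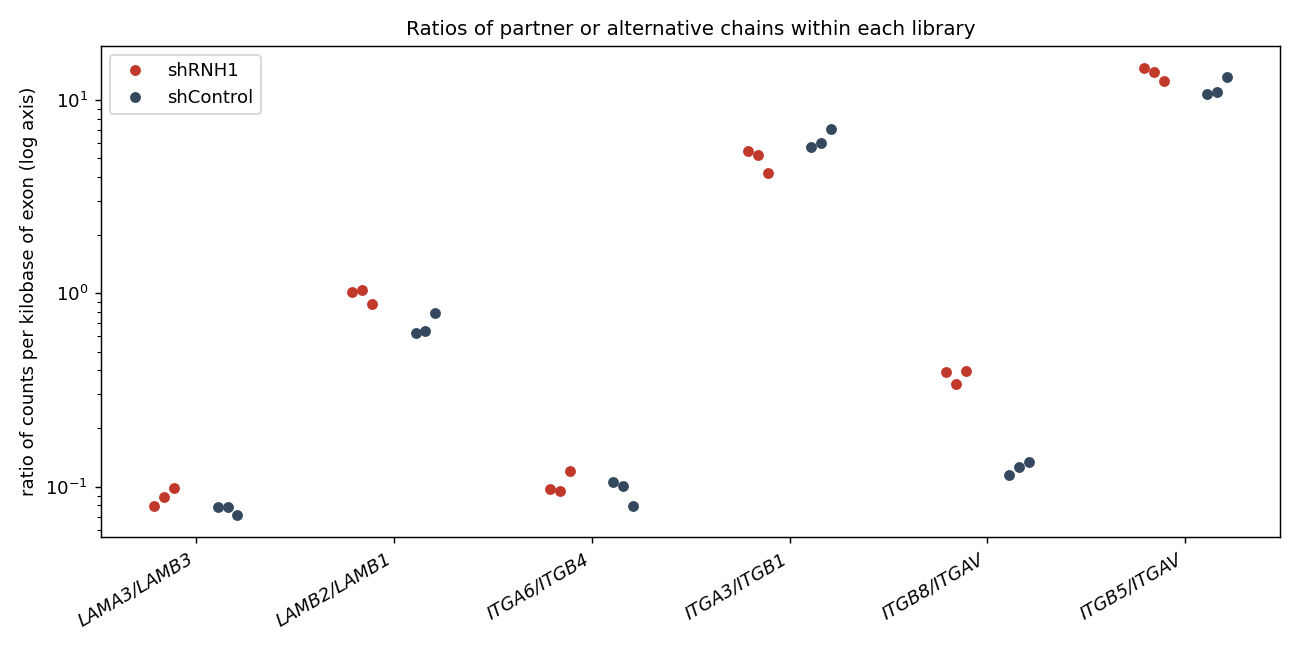
Ratios of counts per kilobase of exon between partner or alternative chains in each library (log y axis), shRNH1 points left of shControl points for each of 6 ratios. ITGA3 to ITGB1 lies lower in all 3 shRNH1 libraries, and ITGB8 to ITGAV lies higher.

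Among the αV integrins and their relatives, which read the Arg-Gly-Asp (RGD) sequence of fibronectin, vitronectin and latent TGF-β, ITGB8 and ITGA2B rose and ITGAV fell. ITGB8 (ENSG00000105855, chr7:20330702-20415754, plus strand), whose product pairs with αV alone and activates latent TGF-β, had 910, 871 and 946 counts in shRNH1 cells, against 412, 435 and 439 counts in shControl cells. Every shRNH1 library exceeded every shControl library. ITGB8 rose 2.43-fold (95% interval 2.08 to 2.84; log2 fold change 1.28, SE 0.108, adjusted p = 8.18e-10). ITGAV (ENSG00000138448, chr2:186590065-186680901, plus strand), the αV gene, went the other way, with 38.6 ± 1.27 CPM in shRNH1 cells and 47.6 ± 2.48 CPM in shControl cells (SD, n = 3 each). ITGAV fell to 0.81 of the shControl level (95% interval 0.71 to 0.925; log2 fold change −0.30, SE 0.0928, adjusted p = 0.0148). The ITGAV call was lost without shControl replicate 1 (−0.27, adjusted p = 0.0841) or shRNH1 replicate 1 (−0.28, adjusted p = 0.0735), and with library size as the only scaling (−0.19, adjusted p = 0.155). The ratio of ITGB8 to ITGAV per kilobase was 0.392, 0.341 and 0.397 in shRNH1 cells, against 0.115, 0.127 and 0.134 in shControl cells.

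ITGB5, which encodes another αV partner, was more abundant per length than ITGB8, at 64.3 CPM per kilobase in shRNH1 cells and 67.5 in shControl cells. It did not pass (log2 fold change −0.07, SE 0.103, adjusted p = 0.664). ITGB8 stood at 1.77 CPM per kilobase in shRNH1 cells and 0.726 in shControl cells. ITGA5, whose product with β1 is the classical fibronectin receptor, had 284 ± 31.7 CPM in shRNH1 cells and 264 ± 15.2 CPM in shControl cells (log2 fold change 0.10, adjusted p = 0.487). ITGA2B (ENSG00000005961, chr17:44372180-44389505, minus strand), the αIIb gene of the platelet fibrinogen receptor, had 161, 203 and 174 counts in shRNH1 cells, against 71, 75 and 62 counts in shControl cells. It rose 2.97-fold (95% interval 2.28 to 3.86; log2 fold change 1.57, SE 0.185, adjusted p = 2.85e-07). ITGB3, the β subunit gene that αIIb needs, had 0 to 4 counts per library and was not tested. It shares 51.57% of its exon bases on the same strand with AC068234.1, listed at 0 throughout, so the ITGB3 counts are uncertain. Of the 4 platelet markers, PF4 and PPBP were listed at 0 in all libraries, GP9 had 0 to 1 counts, and GP1BA had 160 to 338 counts (log2 fold change 0.14, adjusted p = 0.605). The summed level of the 4 was 6.24 to 6.88 CPM in shRNH1 cells and 4.34 to 8.2 CPM in shControl cells. ITGA8 was listed at 0 in every library, ITGB6 had 0 to 4 counts, and of the pair that binds fibronectin and VCAM1, ITGA4 had 0 to 2 and ITGA9 had 1 to 10 counts.

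Of the 4 collagen receptor α subunits, 1 was called (25.0%, against 27.6% of all genes tested). ITGA1 (ENSG00000213949, chr5:52787896-52959210, plus strand), whose product binds collagen IV, had 176, 168 and 165 counts in shRNH1 cells, against 141, 124 and 98 counts in shControl cells. It rose 1.61-fold (95% interval 1.26 to 2.06; log2 fold change 0.69, SE 0.173, adjusted p = 0.0034) and was called under every alternative. The gene shares 2.56% of its exon bases with PELO on the same strand, whose log2 fold change was −0.08 (adjusted p = 0.593). ITGA2, the most abundant of the 4, had 57.8 ± 3.5 CPM in shRNH1 cells and 53.8 ± 7.95 CPM in shControl cells (log2 fold change 0.10, adjusted p = 0.502). ITGA11 (log2 fold change 0.39, adjusted p = 0.243) and ITGA10 (−0.65, adjusted p = 0.444) did not pass either.

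The leukocyte integrins were present at low levels, and 3 of their 5 α subunit genes, which are neighbours on chromosome 16, rose. That is 60.0% called, against 27.6% of all genes tested. ITGAM (ENSG00000169896, chr16:31259967-31332892, plus strand), the αM gene of the complement receptor on myeloid cells, had 24, 24 and 29 counts in shRNH1 cells, against 4, 7 and 7 counts in shControl cells. It rose 4.83-fold (95% interval 2.46 to 9.5, log2 fold change 2.27, SE 0.474, adjusted p = 0.000614), on counts that leave a wide interval. ITGAM entered the test through its shRNH1 libraries alone, with 0 shControl libraries over the low-count limit. ITGAX (ENSG00000140678, chr16:31355134-31382997, plus strand), the αX gene, had 98, 126 and 83 counts in shRNH1 cells, against 42, 39 and 36 counts in shControl cells. It rose 3.0-fold (95% interval 2.13 to 4.22; log2 fold change 1.58, SE 0.24, adjusted p = 1.35e-05). ITGAD (ENSG00000156886, chr16:31393312-31426505, plus strand), the αD gene, had 112, 83 and 76 counts in shRNH1 cells, against 68, 79 and 45 counts in shControl cells. It rose 1.63-fold (95% interval 1.16 to 2.28; log2 fold change 0.70, SE 0.237, adjusted p = 0.0274). Its raw counts overlapped between the groups, while its CPM, which allow for the larger shControl libraries, did not.

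The ITGAD call was lost without shControl replicate 3 (0.54, adjusted p = 0.109) or shRNH1 replicate 1 (0.52, adjusted p = 0.191), in DESeq2 (0.68, adjusted p = 0.0637) and with an offset for expression level (0.57, adjusted p = 0.0793). Reads of ITGAD cannot be told from those of AC093520.1 over 3.31% of its exon bases, and that gene had a log2 fold change of 0.74 (adjusted p = 0.00128). These α subunits share 1 β partner, ITGB2 (ENSG00000160255, chr21:44885953-44931989, minus strand), which moved in the opposite direction. ITGB2 had 113, 112 and 135 counts in shRNH1 cells, against 224, 233 and 232 counts in shControl cells. It fell to 0.6 of the shControl level (95% interval 0.477 to 0.755; log2 fold change −0.74, SE 0.162, adjusted p = 0.001) and was called under every alternative.

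ITGAL, the αL gene of lymphocytes, had 7 to 26 counts per library and did not pass (log2 fold change 0.79, adjusted p = 0.286). ITGAE, which encodes the E-cadherin-binding αE, had 353 to 500 counts per library and a log2 fold change of −0.04 (adjusted p = 0.834). Of its exon bases, 6.41% lie opposite HASPIN, which had 1571 to 2658 counts and was lower (−0.43, adjusted p = 0.00103). The part of HASPIN reads in the ITGAE counts was not tested. ITGB7, the β partner of αE, had a log2 fold change of 0.02 (adjusted p = 0.979), and 42.09% of its exon bases lie opposite ZNF740, so its counts are uncertain without strand. Among 14 leukocyte markers, 3 were tested and 1 was called, which was ITGAM itself. The summed level of the 14 was 8.37 to 10.6 CPM in shRNH1 cells and 6.5 to 7.84 CPM in shControl cells. CSF1R had 199 to 286 counts per library, with means of 7.02 CPM in shRNH1 cells and 5.91 CPM in shControl cells, and CD14 had 12 to 23 counts. Neither CSF1R (log2 fold change 0.25, adjusted p = 0.249) nor CD14 (0.57, adjusted p = 0.345) passed. The 11 markers other than ITGAM, CSF1R and CD14 had at most 30 counts in any library. Among these, PTPRC, of all leukocytes, had 0 to 11 counts and the T cell gene CD3E had 0 to 4. The myeloid regulator SPI1 had 0 to 5, and the B cell gene MS4A1 was listed at 0 throughout.

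**Figure D4:**
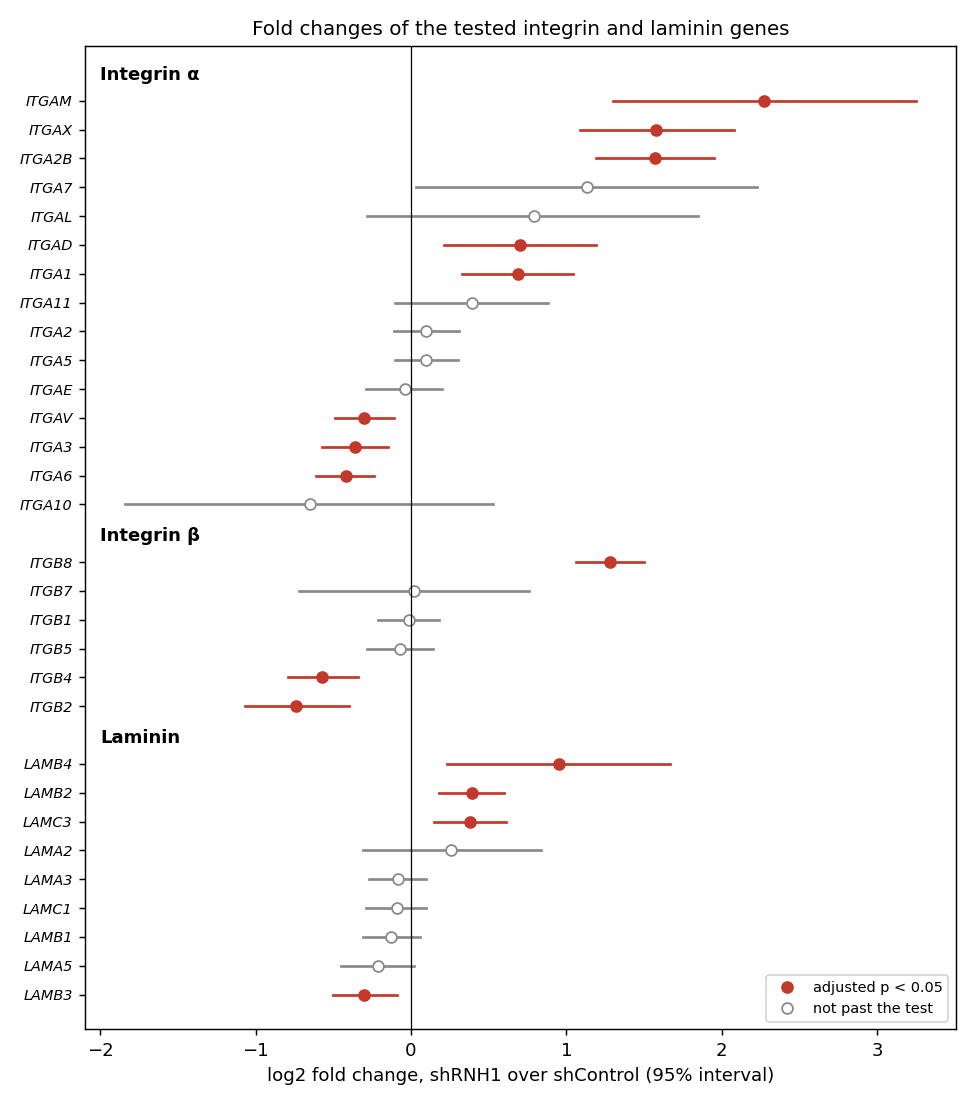
Log2 fold changes of shRNH1 over shControl cells for the 30 tested integrin and laminin genes, with 95% intervals from the fit; filled points passed the adjusted p of 0.05. The 9 higher and 6 lower called genes lie on either side of 0, from ITGAM at 2.27 to ITGB2 at −0.74.

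The make-up of each chain class was then read as a share of counts per kilobase of exon. ITGA3 made up 60.8 ± 1.05% of α transcripts in shRNH1 cells and 65.5 ± 1.52% in shControl cells (SD, n = 3 each). ITGA5 made up 19.7 ± 0.944% in shRNH1 cells and 15.5 ± 0.542% in shControl cells, although its own level did not pass. ITGB4 made up 68.3 ± 1.37% of β transcripts in shRNH1 cells and 75.6 ± 0.93% in shControl cells. ITGB5 took 22.5 ± 0.0684% in shRNH1 cells and 17.7 ± 0.295% in shControl cells, and ITGB1 took 8.27 ± 1.25% in shRNH1 cells and 6.28 ± 0.933% in shControl cells. A share can change because another chain of the class did, and here the summed β level was 285 ± 18.5 CPM per kilobase in shRNH1 cells and 382 ± 47.1 in shControl cells. The summed α level was 189 ± 11.9 CPM per kilobase in shRNH1 cells and 225 ± 11.8 in shControl cells.

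Among laminin β transcripts, LAMB3 made up 44.0 ± 1.23% in shRNH1 cells and 51.0 ± 1.23% in shControl cells, and LAMB2 made up 27.6 ± 0.663% in shRNH1 cells and 19.8 ± 1.43% in shControl cells. LAMA5 took nearly all of the laminin α transcripts, at 96.7% in shRNH1 cells and 97.0% in shControl cells (exact permutation p = 0.5). Of 28 shares compared, 15 were at the smallest exact permutation p of 0.1, which is 0.187 after adjustment, so this test cannot place any share past the threshold. The same limit of the test holds for the 4 summed levels, of which the integrin α and β sums did not overlap between groups (exact permutation p = 0.1, adjusted 0.2).

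**Figure D5:**
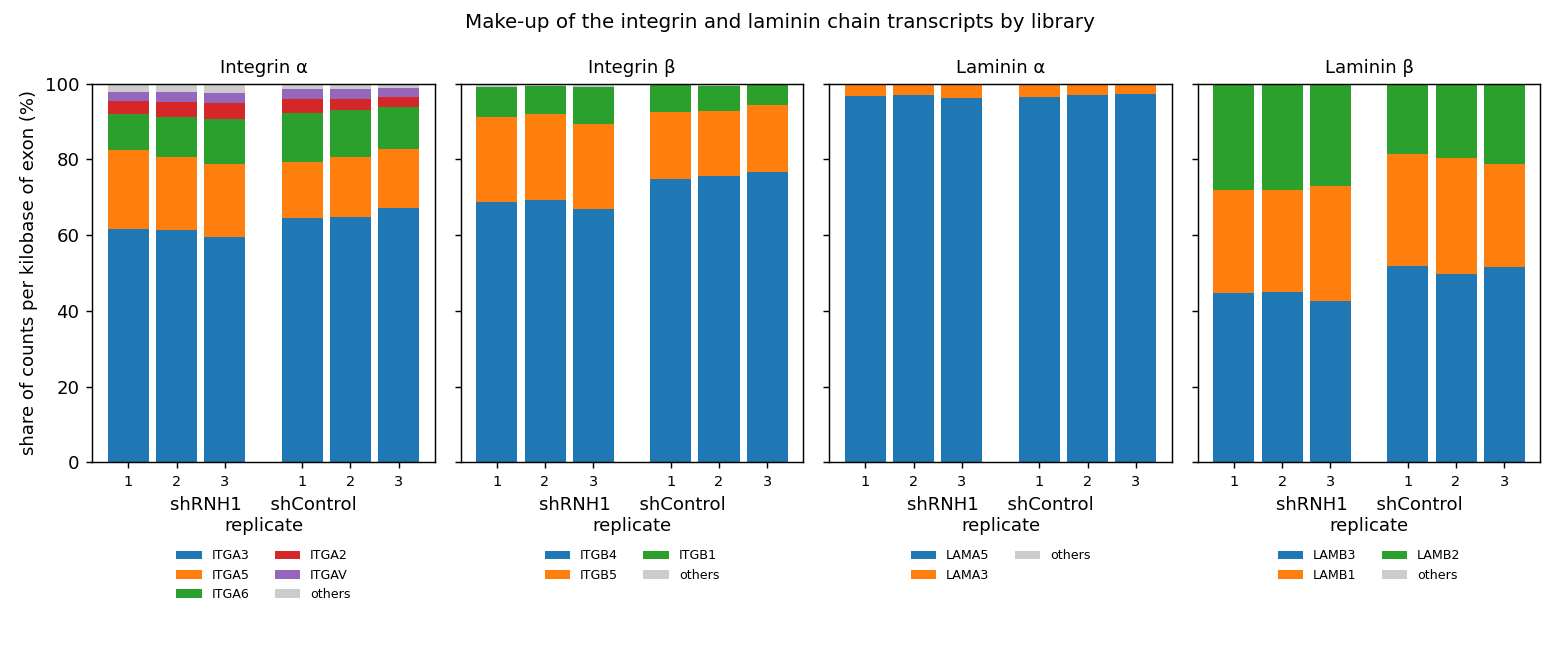
Stacked shares (%) of counts per kilobase of exon within the integrin α, integrin β, laminin α and laminin β classes, 1 bar per library, shRNH1 libraries left of shControl libraries. LAMB2 takes 27.6% of the laminin β class in shRNH1 cells and 19.8% in shControl cells, and ITGB4 takes 68.3% of the integrin β class in shRNH1 cells and 75.6% in shControl cells.

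Other genes of the pathway were read from 3 lists. Of 41 genes of adaptors and the adhesion complex inside the cell, 39 were tested and 17 were called (43.6%, against 27.6% of all genes tested), 5 higher and 12 lower, with a median log2 fold change of −0.09. Among all genes with a mean of at least 10 CPM, 37.4% were called. The falls with the smallest adjusted p were ZYX (−0.92, adjusted p = 3.04e-08) and ACTN1 (−0.94, adjusted p = 8.56e-08), of the actin-linked zyxin and α-actinin, VCL (−0.82, adjusted p = 2.14e-07), of vinculin, and FERMT3 (−1.06, adjusted p = 2.36e-06), the kindlin of blood cells. The rises were led by the talin-binding scaffold genes KANK1 (2.19, adjusted p = 8.88e-07) and KANK4 (3.63, adjusted p = 5.25e-06), followed by the docking protein gene NEDD9 (1.43, adjusted p = 2.19e-05) and TGFB1I1 (0.80, adjusted p = 7.48e-05), a paxillin relative. KANK1 had 18 to 107 counts per library. KANK4 had 1 to 48 counts and was tested through its shRNH1 libraries alone, all 3 shControl libraries lying under the low-count limit.

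Of 25 other basement membrane and hemidesmosome genes, 20 were tested and 12 were called (60.0%, against 27.6% of all genes tested), 5 higher and 7 lower, with a median of −0.10. The anchoring fibril collagen COL7A1 fell (−0.88, adjusted p = 3.44e-07), as did COL4A1 (−0.75, adjusted p = 1.7e-06), a chain of the basement membrane collagen network. PLEC, whose product links β4 to keratin, fell as well (−0.86, adjusted p = 7.89e-06), with 3724 ± 448 CPM in shRNH1 cells and 6747 ± 1166 CPM in shControl cells, as did NTN1 (−0.68, adjusted p = 5.24e-05), of a laminin-related secreted protein. The hemidesmosomal collagen gene COL17A1 rose instead (0.43, adjusted p = 0.000748), with 284 ± 17.2 CPM in shRNH1 cells and 210.2 ± 9.85 CPM in shControl cells. NPNT (1.78, adjusted p = 4.53e-05), which encodes an α8β1 ligand, COL4A5 (0.36, adjusted p = 0.00424) and NID1 (0.64, adjusted p = 0.0267), of the laminin linker nidogen, rose too.

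Of 33 other integrin ligands and non-integrin laminin receptors listed, 32 were matched by symbol and 25 of these were tested. Of the 25, 15 were called (60.0%, against 27.6% of all genes tested), 9 higher and 6 lower, with a median of 0.01. The falls with the smallest adjusted p were in THBS1 (−2.61, adjusted p = 6.17e-17), CCN1 (−2.39, adjusted p = 1.36e-15) and CCN2 (−2.33, adjusted p = 2.69e-09), secreted matricellular ligands of several integrins. THBS1 had 27.3 ± 0.874 CPM in shRNH1 cells and 167 ± 4.58 CPM in shControl cells (SD, n = 3 each). TGFBI, another secreted integrin ligand, fell too (−0.97, adjusted p = 1.86e-08). VTN, of vitronectin (1.19, adjusted p = 1.26e-07), LTBP1, which holds latent TGF-β in the matrix (0.90, adjusted p = 2.65e-07), NPNT, which is also in the list above, and MFGE8 (0.51, adjusted p = 0.000135), an RGD ligand of αV integrins, rose.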

How the data were processed

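Poly(A)-selected RNA of 6 KYSE510 libraries was sequenced. The deposited values are raw whole-number counts per gene. Per the submitters' processing notes, HISAT2, StringTie, DESeq2 and GRCh38 were involved; the sources used here give no roles, versions or strand setting, so reads of overlapping genes could not be told apart. Positions and exon lengths came from GENCODE 29, which held 58207 of the 62700 IDs.

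Counts were tested with edgeR 4.0.16 (R 4.3.3): TMM, filterByExpr by group with a minimum of 10 counts, and Benjamini-Hochberg adjustment over 19682 genes at 0.05. CPM are scaled by TMM. Standard errors were derived from the F statistic, and 95% intervals from them. Shares, sums and ratios were compared by exact two-sided permutation tests. Intervals cover the spread between libraries. The scripts were tested on simulated data. Every pair of replicates differed by more than sampling noise (chi-square per gene 6.61 to 21).

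The members and lists were chosen with earlier results of these data known. Of 38 matching genes, 1 is not reported here and enters no member count, share or ratio; the fit across all genes was left as it was. The other 37 are reported, called ones with full statistics where they changed by at least 1.5-fold or ranked in the first 5 of their class, and up to 4 genes per list and direction. Alternatives were DESeq2 1.42.0, limma-voom (limma 3.58.1), RLE factors, scaling by library size alone, no low-count filter, a filter keeping genes with CPM of 1 or more in 3 or more libraries, a replicate block, offsets for expression level or for GC content and length (splines of 5 degrees of freedom, MASS 7.3.60.0.1; 95.3% of genes covered), and each library left out. Ratios of chains were added after the data were seen.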

Additional observations from a re-analysis of the deposited data

How the results depend on the processing

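Over 15 alternatives, 8 of the 15 called members (ITGA6, ITGA1, ITGB8, ITGAM, ITGAX, ITGA2B, ITGB4 and ITGB2) passed under every alternative that tested them, 7 missed the threshold under at least 1, and 0 changed direction. The number of laminin genes called, 4, was 2 with an offset for expression level and 0 to 3 when 1 library was left out, and the number of members called higher, 9, was 5 to 8; the cause was not tested. Members called numbered 13 with DESeq2, library size alone or the stricter filter, 11 with the expression level offset and 10 to 14 with 1 library left out. Library size alone moved the median of all genes by 0.111 (log2) and the share of calls that were higher to 73.9%, against 55.4%. No pairing by replicate number was seen, with correlations of 0.048, 0.033 and −0.146 between libraries of 1 number. Libraries of unlike numbers had −0.212 to 0.201, and the labels do not say whether samples were paired. A replicate block left 5094 genes and 14 members called, with LAMB3 lost (−0.30, adjusted p = 0.0545). Signs turned only in members that had not passed. With library size alone these were ITGAE (0.06), ITGB1 (0.10), ITGB5 (0.05), LAMA3 (0.03) and LAMC1 (0.02). With the expression level offset they were ITGB1 (0.08), ITGB5 (0.08), ITGB7 (−0.03), LAMA5 (0.01) and LAMC1 (0.06). ITGB7 also turned with RLE factors (−0.00047), DESeq2 (−0.0044) and the GC and length offset (−0.05). With 1 library left out, the log2 fold change ran from −1.08 to 0.12 (ITGA10), from −0.10 to 0.04 (ITGAE), from −0.08 to 0.04 (ITGB1), from −0.16 to 0.04 (ITGB5) and from −0.18 to 0.16 (ITGB7). LAMB4 also lost its call under the expression level offset (0.90, adjusted p = 0.0607) and without a low-count filter (0.95, adjusted p = 0.0588), and LAMC3 with the GC and length offset (0.29, adjusted p = 0.0553). ITGAL, ITGA7 and ITGA10, with 4 to 29 counts per library, did not pass, and the 7 untested members had at most 10 counts in a library.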

Other observations

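Around ITGAM, ITGAX and ITGAD, within 200 kb on either side on chromosome 16, 26 genes were tested and 15 were called, all 15 higher in shRNH1 cells; the window was chosen after the values were seen. Without the 3 integrin genes, 12 of 23 were called. Over all genes tested, 27.6% were called and 15.3% were called higher. Examples are the serine protease genes PRSS8 (log2 fold change 1.54, adjusted p = 1.02e-05) and PRSS36 (1.98, adjusted p = 2.35e-09) in edgeR's quasi-likelihood test.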
